A study of Homo sapiens with 3 samples.

Results

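ATP-binding cassette (ABC) genes were examined in SH-SY5Y, an established human neuroblastoma line of sympathetic neuroblast character. The members were the protein-coding genes, by GENCODE release 29, whose symbol consists of ABC, a subfamily letter from A to G and a number. This gave 45 genes of the 19686 protein-coding identifiers in the table. The rule used no measured value, though earlier results of these data were known when it was set. RNA came from 3 separate flasks of adherent cells in serum-containing medium at about 60% confluency, with no treatment named in the labels, and 500 ng of each was made into a stranded mRNA library. The labels give 1 group with no second condition, so levels were compared between genes and against a fixed level within the same libraries.

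ABC proteins bind and hydrolyse ATP with a conserved nucleotide-binding domain, and most use it to move a substrate across a membrane. Some expel drugs and their conjugates at the cell surface, others move lipids, and others serve mitochondria, peroxisomes or lysosomes. Subfamilies E and F have no membrane-spanning part and act on ribosomes and translation. In neuroblastoma the family is known mainly for drug efflux, through P-glycoprotein (ABCB1) and the multidrug resistance-associated proteins of subfamily C.

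Values are deposited FPKM (a count of fragments divided by transcript length and by library size), which allow genes of different length to be set beside each other. A gene is called above or below when its log2(FPKM + 0.1) differed from that of 1 FPKM by limma's moderated test at a Benjamini-Hochberg adjusted p under 0.05 over all 31736 genes tested. Errors are SDs over the libraries (n = 3). The flasks are the only replicates, so the tests cover the spread between flasks of 1 line. In bulk RNA, fewer expressing cells and less RNA per cell cannot be told apart. From the steps of low values, the libraries held about 21600000, 28600000 and 43500000 reads in replicates 1, 2 and 3. At those depths 3 reads on 1 kb of effective transcript length correspond to 0.139, 0.105 and 0.0690 FPKM, for counting error only. All 8 markers of noradrenergic neuroblastoma were called above 1 FPKM, and their summed level ranged from 4385 to 4551 FPKM. None of 5 immune, 4 endothelial or 5 hepatocyte and enterocyte markers were, with summed levels of at most 0.320, 0.111 and 0.151 FPKM, and CD3E, ITGAM, CDH5 and CDX2 were listed at 0. Of 4 epithelial markers 2 were called below, EPCAM (1.61 ± 0.643 FPKM) was called neither and KRT5 was listed at 0, with a summed level of 1.99 to 3.31 FPKM. Of 6 fibroblast markers 5 were called above, led by THY1 (60.1 ± 1.97 FPKM), and COL1A2 (0.921 ± 0.475) was called neither. The summed level of the 6 was 109 to 120 FPKM, and their part in the values below was not tested.

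The ABC genes fell into 27 called above 1 FPKM, 16 called below and 2 listed at 0, with none called neither (the plot of all values by library). Few other genes were called neither as well, 4.83% of tested protein-coding genes. The background was 70.6% of tested protein-coding genes called above and 24.6% called below, against 27 and 16 of the 43 tested ABC genes. Among tested genes the share above was thus lower for the ABC genes, 62.8% against 70.6%. With untested genes counted too, 60% of the 45 ABC genes and 60.1% of all protein-coding genes were called above, so the shares were alike on that count alone. The median over the 45 genes was 2.94 FPKM, and 5.40 FPKM over all protein-coding genes. At a level of 0.5 FPKM 27 ABC genes were above and 13 below, against 74.2% and 19.7% of tested protein-coding genes. At 5 FPKM 18 were above and 22 below, against 56.6% and 37.4%. The lowest mean among those above was 1.53 FPKM (ABCB9) and the highest among those below was 0.396 FPKM (ABCC6). By subfamily, 5 of 12 A genes, 7 of 9 B genes, 5 of 11 C genes, all 4 D genes, the E gene, all 3 F genes and 2 of 5 G genes were called above. Grouped by role, all 13 genes of the ribosome, mitochondrion, peroxisome and lysosome were called above, against 14 of the other 32. The coding shares at 1 FPKM are also the background for the counts of roles and partner lists below.

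**Figure D1:**
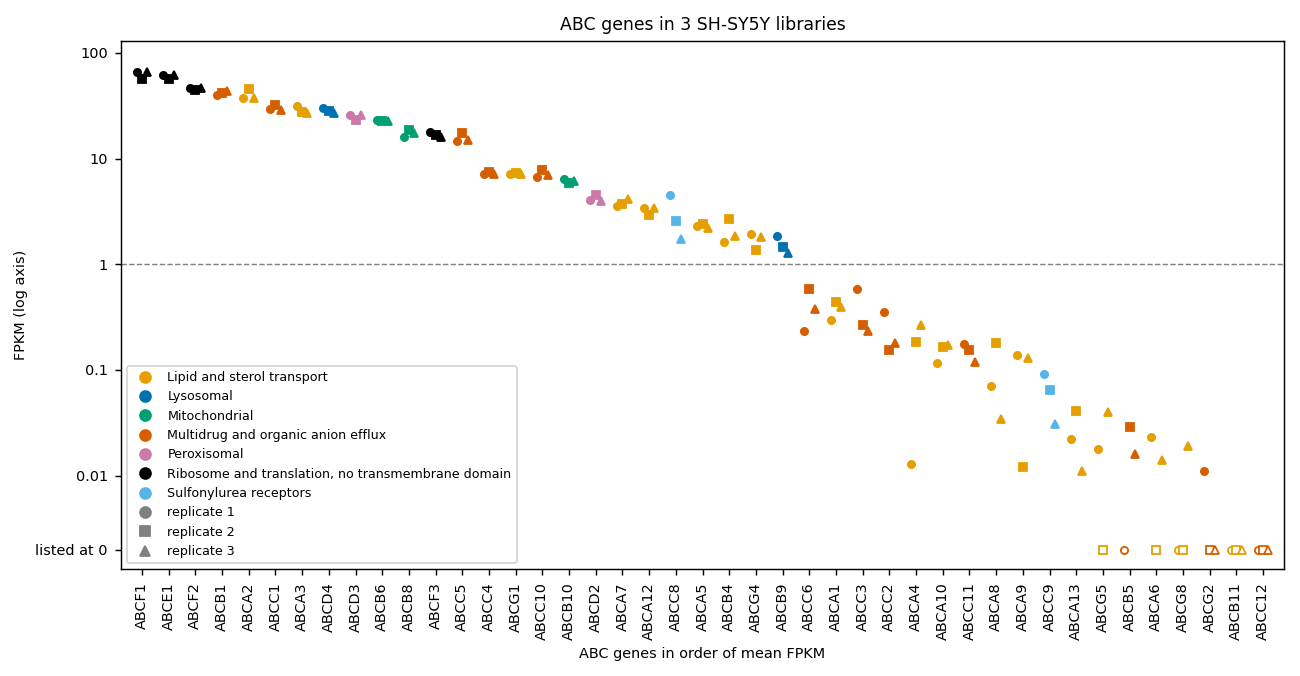
FPKM (log axis) of 43 of the 45 ABC genes in order of their mean, with 1 symbol shape per library and colours for roles; open symbols are values listed at 0 and the dashed line is 1 FPKM. The values run from ABCF1 at 62.5 FPKM to ABCB11 and ABCC12 at 0, and no gene shown has libraries on both sides of the line.

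ABCF1, ABCE1 and ABCF2, the 3 highest, are of the kind without a transport function. ABCF1, which promotes translation initiation, stood at 66.0, 56.6 and 65.1 FPKM in replicates 1, 2 and 3 (limma adjusted p = 2.99e-05). ABCE1, which splits ribosomes after termination, stood at 61.3, 56.9 and 61.3 FPKM. ABCF2 stood at 46.1, 44.6 and 46.1 FPKM and ABCF3 at 17.7, 16.5 and 16.1. ABCE1 lay below ABCF1 by a log2 difference of -0.06 ± 0.06, a gap about as large as its spread and turned in replicate 2 (exact sign-flip p = 0.50 over 3 libraries). ABCF1 exceeded ABCF2 in 3 of 3 libraries by 0.45 ± 0.10. These 4 genes held 37.3%, 34.3% and 37.2% of the summed FPKM of the family. Against a background of 70.6% of tested protein-coding genes, 10 of 10 partner genes of ribosome recycling and initiation were called above 1 FPKM (median 54.6 FPKM). Among these were the release factor genes ETF1 (61.1 ± 4.34 FPKM) and GSPT1 (117 ± 7.77) and the ribosome rescue genes HBS1L (48.2 ± 2.24) and PELO (10.9 ± 0.672). ABCE1 shares 469 exonic bases with ANAPC10 (16.7 ± 2.02 FPKM) and 276 with OTUD4 (13.8 ± 0.340) on the other strand.

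**Figure D2:**
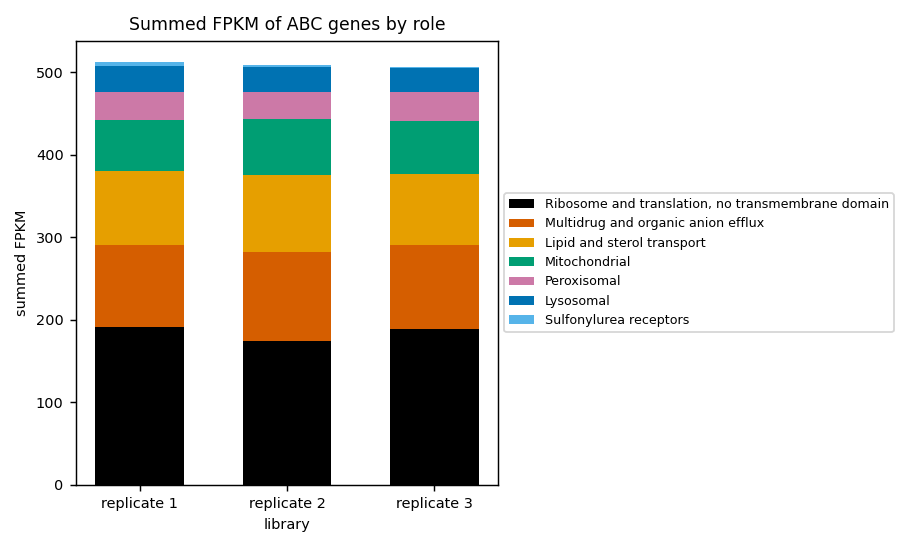
Summed FPKM of the ABC genes in each library, stacked by role. The total is 513, 509 and 507 FPKM in replicates 1, 2 and 3, and the ribosome and translation group is the largest block in each.

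Of 12 genes for multidrug and organic anion efflux 5 were called above 1 FPKM, 6 below and 1 was listed at 0, and ABCB1 was the highest. ABCB1 (chromosome 7, 87503633 to 87713323, minus strand) encodes P-glycoprotein, which expels anthracyclines, vinca alkaloids and taxanes. It stood at 40.3, 41.3 and 43.3 FPKM in replicates 1, 2 and 3, a log2 distance from 1 FPKM of 5.24 (SE 0.0688, limma adjusted p = 2.99e-05), at percentile 82.3 of the tested protein-coding genes. The highest flask was 1.08 times the lowest.

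ABCC1 (chromosome 16, 15949577 to 16143074), which encodes the glutathione-conjugate exporter MRP1, stood at 29.5, 32.1 and 28.7 FPKM. It was below ABCB1 in 3 of 3 libraries, by a log2 difference of -0.47 ± 0.12. ABCC5, an exporter of cyclic nucleotides and nucleotide analogues, stood at 14.8, 17.3 and 14.9 FPKM. ABCC4, which exports cyclic AMP and prostaglandins, stood at 7.20, 7.38 and 7.09 FPKM. ABCC10, a taxane exporter, stood at 6.74, 7.71 and 7.02 FPKM. ABCC1 exceeded ABCC5 by 0.94 ± 0.05 and ABCC4 by 2.04 ± 0.06 on the log2 scale, and ABCC10 lay below ABCC1 by -2.06 ± 0.05, each in 3 of 3 libraries. ABCB1 held 40.5% ± 1.95 of the summed FPKM of the 12 efflux genes and ABCC1 held 29.2% ± 0.999.

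ABCG2, the breast cancer resistance protein that exports camptothecins and urate, was at the other end. Its values were 0.011 FPKM in replicate 1 and 0 in replicates 2 and 3, which on its longest transcript is about 1 read in 3 libraries. The floor of 3 reads on that transcript is 0.0325, 0.0246 and 0.0161 FPKM, so all 3 libraries lay under it, and no fold is given for ABCB1 or ABCC1 over ABCG2. ABCB5, described in melanoma, stood at 0, 0.029 and 0.016 FPKM, and ABCC12 was listed at 0 throughout. ABCC2, the canalicular exporter of bilirubin conjugates, stood at 0.353, 0.156 and 0.178 FPKM. Its relative ABCC3 at the basolateral membrane stood at 0.577, 0.268 and 0.235 FPKM, and both were highest in replicate 1. ABCC6, whose loss causes ectopic calcification, stood at 0.236, 0.577 and 0.375 FPKM and was lowest in replicate 1. ABCC11, the earwax-type gene, stood at 0.177, 0.155 and 0.120 FPKM and shares 293 exonic bases with LONP2 on the other strand (24.8 ± 0.607 FPKM). ABCC6, ABCC3, ABCC2 and ABCC11 were called below 1 FPKM. ABCC3 did not keep its call when replicate 2 or replicate 3 was left out (limma adjusted p = 0.0903 and 0.0568), nor did ABCC6 when replicate 3 was (0.0646). Reads of ABCC6 can be divided with the copies ABCC6P1 (0.0743 ± 0.0654 FPKM) and ABCC6P2 (0.127 ± 0.0633), so its value is uncertain.

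Glutathione is used by MRP-type exporters as a co-substrate or a conjugate. Of its 16 synthesis and conjugation genes 14 were called above 1 FPKM (median 25.9 FPKM), against 70.6% of tested protein-coding genes. GSTP1, the main glutathione transferase of many tumours, reached 426 ± 27.2 FPKM and MGST3 127 ± 8.02. GCLC, the catalytic subunit of the rate-limiting enzyme, stood at 35.9 ± 0.829 FPKM and its modifier GCLM at 5.82 ± 0.335. GSTM1 (0.0903 ± 0.127 FPKM), which shares 402 exonic bases with AC000032.1 (0.267 ± 0.120), was called below and MGST1 (1.44 ± 0.631) neither. Of 20 drug transporters of other families 12 were called above (60%), 4 below, and 4 were listed at 0. The share above was that of all protein-coding genes (60.1%). The nucleoside carrier SLC29A1 stood at 50.2 ± 0.702 FPKM and the organic anion carrier SLCO4A1 at 11.4 ± 1.07. The organic cation transporters SLC22A2 and SLC22A3 and the liver uptake carrier SLCO1B3 were among those listed at 0, and the liver carrier SLCO1B1 (0.00933 ± 0.00862 FPKM) was called below.

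Regulators of transporter genes were uneven, with 16 of 20 called above 1 FPKM, 3 below and 1 listed at 0. Of all protein-coding genes 60.1% were called above. The Y-box protein YBX1 (728 ± 35.2 FPKM), MYC (54.6 ± 0.990) and SREBF2 (50.3 ± 4.81) were highest. NFE2L2, the oxidative stress factor NRF2, stood at 27.2 ± 2.51 FPKM and its inhibitor KEAP1 at 36.1 ± 1.01. Among xenobiotic sensors, NR1I2 (PXR, 0.0273 ± 0.0129 FPKM) and AHR (0.0103 ± 0.00451) were called below, while NR1I3 (CAR, 9.97 ± 1.37) was called above. The bile acid receptor NR1H4 was listed at 0.

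Lipid transporters were split, with 8 of 18 genes called above 1 FPKM, 9 below and 1 listed at 0. ABCA2, a lipid transporter of neural cells and oligodendrocytes, stood at 37.0, 45.3 and 37.7 FPKM (limma adjusted p = 3.78e-05). It was highest in replicate 2, where it passed ABCB1, and the difference between them, 0.06 ± 0.17 on the log2 scale, was smaller than its spread. ABCA3, best known as the surfactant lipid transporter of alveolar cells, stood at 31.5, 27.5 and 27.0 FPKM, below ABCA2 in 3 of 3 libraries (0.48 ± 0.24). ABCA7, a phagocytosis and Alzheimer risk gene, stood at 3.52, 3.69 and 4.12 FPKM. ABCA12, the keratinocyte ceramide transporter, stood at 3.42, 2.95 and 3.39 FPKM, and the lysosomal lipid gene ABCA5 at 2.30, 2.38 and 2.21.

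The cholesterol exporters did not stand at one level. ABCG1, which loads cholesterol onto high-density lipoprotein, stood at 7.10, 7.36 and 7.11 FPKM (limma adjusted p = 5.60e-05). ABCA1, which loads lipid-poor apolipoprotein A1, stood at 0.296, 0.437 and 0.391 FPKM and was called below (limma adjusted p = 0.00210). ABCA1 lay below ABCG1 in 3 of 3 libraries by a log2 difference of -3.95 ± 0.20 and below ABCA7 by 3.04 ± 0.19. ABCG4, the neural relative of ABCG1, stood at 1.93, 1.36 and 1.82 FPKM. It was called above, but not without replicate 1 (limma adjusted p = 0.0554), without replicate 3 (0.0681) or in TPM over all genes (0.187). TPM without genes of the mitochondrial chromosome kept the call (limma adjusted p = 0.00518). Of 9 sterol acceptor and lipoprotein genes 7 were called above, led by the lysosomal cholesterol gene NPC2 (35.8 ± 2.69 FPKM) and the scavenger receptor SCARB1 (27.1 ± 2.25). APOE stood at 2.69 ± 0.192 FPKM and APOA1 was listed at 0. The liver X receptor genes, whose products induce ABCA1 and ABCG1 in many cells, stood at 17.8 ± 0.774 (NR1H2) and 4.34 ± 1.33 FPKM (NR1H3), the second beside ACP2 on the other strand (19.2 ± 1.72).

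Transporters known from bile and intestine stood at different levels. ABCB11, the bile salt export pump, was listed at 0 in all 3 libraries, and the sterol exporters ABCG5 (0.018, 0 and 0.040 FPKM) and ABCG8 (0, 0 and 0.019) were called below. On their longest transcripts these are at most 4.9 and 5.8 estimated reads in any library. ABCB4, the phosphatidylcholine floppase of bile, was called above at 1.63, 2.69 and 1.84 FPKM, highest in replicate 2 (limma adjusted p = 0.0124). ABCA4, the retinal transporter, stood at 0.013, 0.185 and 0.269 FPKM, a range of 20.7-fold with about 2.0 reads in replicate 1, and without replicate 2 it was called neither (limma adjusted p = 0.0656). ABCA13 stood at 0.022, 0.041 and 0.011 FPKM.

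Mitochondrial transporters were called above in 4 of 4. ABCB6, a porphyrin transporter, stood at 22.9, 22.6 and 22.6 FPKM, the smallest spread of the genes called above (SD of log2 values 0.0113). ABCB8 stood at 16.0, 18.6 and 17.5 FPKM, and ABCB10, which supports haem synthesis, at 6.39, 5.83 and 6.18. ABCB6 exceeded ABCB8 in 3 of 3 libraries by a log2 difference of 0.39 ± 0.12. All 12 iron-sulfur and haem partner genes were called above (median 20.9 FPKM), from ISCU (54.7 ± 4.69 FPKM) to CPOX (10.03 ± 1.43). Of these, PPOX (32.1 ± 0.809) shares 1118 exonic bases with B4GALT3 (100 ± 4.62) on the other strand. NFS1 (22.3 ± 0.675) shares 88 with ROMO1 (241 ± 10.6), also on the other strand.

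Peroxisomal transporters bring very long-chain fatty acids and other acyl-CoAs into peroxisomes. All 3 genes of the group were called above 1 FPKM. ABCD3 stood at 25.6, 23.3 and 25.6 FPKM and ABCD2 at 4.06, 4.56 and 3.96, so the groups of values did not overlap. All 8 peroxisomal partner genes were called above, among them HSD17B4 (464 ± 12.3 FPKM) and PEX19 (78.6 ± 3.90), the import receptor for peroxisomal membrane proteins. In lysosomes, ABCD4, which exports cobalamin, stood at 30.0, 28.3 and 27.1 FPKM, with its partner LMBRD1 at 11.4 ± 0.256 and all 6 cobalamin genes called above. The lysosomal peptide transporter gene ABCB9 stood at 1.86, 1.45 and 1.29 FPKM. It was called above, but not without replicate 1 (limma adjusted p = 0.0573), without replicate 2 (0.1003) or in TPM over all genes (0.513). TPM without genes of the mitochondrial chromosome kept the call (limma adjusted p = 0.00841). ABCB9 shares 1590 exonic bases with ARL6IP4 (162 ± 2.21 FPKM) and 1656 with OGFOD2 (9.59 ± 0.959) on the other strand. The library kit keeps strand, but no source used here says whether the counting used it, so the values of ABCB9 and MMACHC are uncertain. Of the related antigen peptide transporter genes, TAP2 was called above at 12.0 ± 1.83 FPKM and TAP1, which shares 456 exonic bases with PSMB8-AS1 (0.150 ± 0.0527), below at 0.0647 ± 0.0361. CFTR, the ABC gene for a chloride channel, was listed at 0.

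Sulfonylurea receptors, the regulatory subunits of ATP-sensitive potassium channels, stood at different levels. ABCC8 (SUR1) stood at 4.54, 2.55 and 1.74 FPKM, the widest spread of the genes called above (SD of log2 values 0.672), and was called above (limma adjusted p = 0.0216). It was called neither when replicate 2 was left out (limma adjusted p = 0.108), with no filter on low values (0.0571) or in TPM over all genes (0.0536). TPM without genes of the mitochondrial chromosome kept the call (limma adjusted p = 0.0139). ABCC9 (SUR2) stood at 0.091, 0.065 and 0.031 FPKM and was called below, and ABCC8 exceeded it in 3 of 3 libraries by a log2 difference of 4.14 ± 0.41 (1.83 with a pseudocount of 1). Both receptors were highest in replicate 1 and lowest in replicate 3. The pore genes showed the other order: KCNJ8 (7.32, 6.99 and 7.73 FPKM), which pairs with SUR2 in vessels, was above KCNJ11 (2.12, 3.90 and 2.06), which pairs with SUR1 in beta cells, in 3 of 3 libraries. The difference of KCNJ11 from KCNJ8 was -1.47 ± 0.57 on the log2 scale.

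Across the 19 gene pairs compared, 18 had 1 sign in all 3 libraries with exact p = 0.25, the smallest that a two-sided sign-flip test over 3 libraries can give, and 0.264 after Benjamini-Hochberg adjustment. No pair could pass the threshold, so the differences stand with their SDs alone. Of the 26 neighbours in the order of the genes called above, 13 differed by no more than 1 SD of the within-library difference. These included ABCB1 and ABCA2, ABCC1 and ABCA3, ABCA3 and ABCD4, ABCC4 and ABCG1, ABCG1 and ABCC10, and the last 5 steps from ABCA12 to ABCB9. The largest step was from ABCC5 to ABCC4 (1.10 ± 0.10).

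The ABC genes called above were about as steady between flasks as other coding genes called above. Both groups hold only genes that passed the call, which itself requires a small spread relative to the distance from 1 FPKM. The median SD of log2 values was 0.098 for the 27 ABC genes and 0.102 for the 11828 protein-coding genes called above. In 23 of the 27 the highest library was within 1.3-fold of the lowest. The others were ABCC8 (2.61-fold), ABCB4 (1.65-fold), ABCB9 (1.44-fold) and ABCG4 (1.41-fold), all under 3 FPKM. Replicate 1 was highest for ABCC8, ABCB9 and ABCG4, and replicate 2 for ABCB4.

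**Figure D3:**
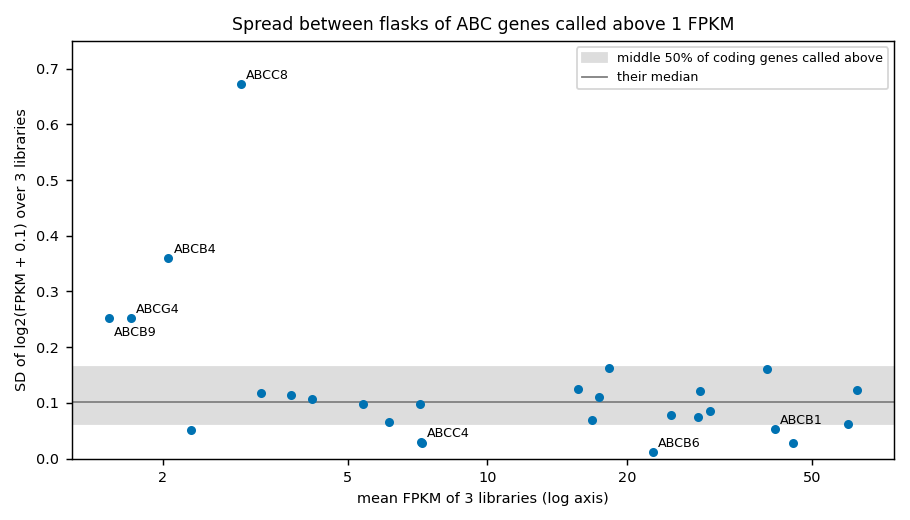
SD of log2(FPKM + 0.1) over the 3 libraries against mean FPKM (log axis) for the 27 ABC genes called above, with the median and middle 50% of all protein-coding genes called above in grey. ABCC8 at 0.672 and ABCB4 at 0.360 lie highest, and ABCB6 at 0.0113 lies lowest.

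Several ABC genes lie within 1000 kb of each other on a chromosome. Such neighbours, which can have other genes between them, often stood at different levels. On chromosome 7, ABCB1 and ABCB4 are separated by 23197 bases on the same strand, and ABCB1 was 20.3 times as high (log2 difference 4.31 ± 0.36, in 3 of 3 libraries). On chromosome 16, ABCC1 and ABCC6 end 5853 bases apart on opposite strands at 30.1 and 0.396 FPKM. On chromosome 1, ABCD3 and ABCA4 lie 297322 bases apart at 24.8 and 0.156 FPKM. The chromosome 17 cluster holds ABCA8, ABCA9, ABCA6, ABCA10 and ABCA5 in a row on the minus strand. Of these ABCA5 was called above (2.30 FPKM), while ABCA10 (0.117, 0.164 and 0.172 FPKM), ABCA8 (0.071, 0.179 and 0.034), ABCA9 (0.138, 0.012 and 0.129) and ABCA6 (0.023, 0 and 0.014) were called below. ABCA5 and ABCA10 share 318 exonic bases on that strand, so reads there can go to either. Other neighbours were closer in level. ABCF3 and ABCC5, 168007 bases apart on chromosome 3, stood at 16.8 and 15.7 FPKM. ABCF2 and ABCB8, 164707 bases apart on chromosome 7, stood at 45.6 and 17.4 FPKM. ABCC11 and ABCC12 on chromosome 16, and ABCG5 and ABCG8 on chromosome 2, were low or at 0 together. In all, 11 ABC genes share exonic bases with a gene on the other strand, and for 3 of them, ABCB9, ABCC11 and ABCG8, that gene had the higher mean.

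**Figure D4:**
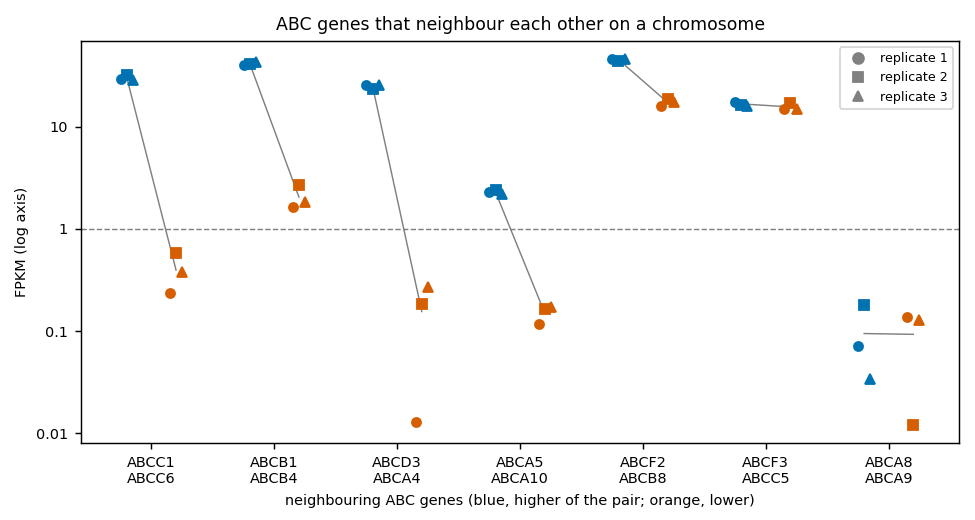
FPKM (log axis) in each library for 7 pairs of ABC genes within 1000 kb of each other on a chromosome. The higher gene of a pair is in blue and the lower in orange, joined at their means. The dashed line is 1 FPKM. The first 4 pairs differ by over 10-fold in their means, while ABCF3 and ABCC5, and ABCA8 and ABCA9, overlap or nearly so.

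The sequence at the gene start was set beside the level. CpG dinucleotides are depleted in most of the genome and kept in CpG islands, which mark the promoters of many broadly expressed genes. RefSeq windows (GRCh38.p14, 250 bases before to 50 after a start) were found for 35 of the 45 genes, with 53 starts, and the start with the highest ratio of observed to expected CpG was taken for each gene. The median ratio was 0.906 in the 21 genes called above and 0.412 in the 14 called below or listed at 0. Over all protein-coding genes with a window it was 0.879 for those called above (9427) and 0.353 for those called below or listed at 0 (4848). A ratio of at least 0.6 was found in 18 of the 21 and 6 of the 14, against 91.4% and 33.4% of those coding genes. The GC box, searched as GGGCGG on both strands, was in 17 of the 21 and 4 of the 14, against 79.1% and 38.4%. These shares count a gene with a match at any of its starts. Counted by single window, it was in 45.0% of all 35116, which is no background for shares by gene. These are descriptions with no test, and a match is not a site.

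Stretches upstream of 5 starts show the range, from CpG-rich to CpG-poor and from high to low level. Each is given 5′ to 3′ on the gene's strand, ends where the first GENCODE exon begins or at the start, and has CpG in capitals. ABCD3 (chr1:94418139-94418388, plus strand, 24.8 FPKM) has 34 CpG in 250 bases, and the upstream start of ABCB1 (chr7:87713324-87713545, minus strand, 41.6 FPKM) has 1 in 222. ABCC9 (chr12:21941427-21941676, minus strand) has 15 although the gene stood at 0.0623 FPKM. ABCC2 (chr10:99782390-99782639, plus strand, 0.229 FPKM) and ABCB11 (chr2:169031325-169031574, minus strand, listed at 0) have 1 and 2.
ABCD3: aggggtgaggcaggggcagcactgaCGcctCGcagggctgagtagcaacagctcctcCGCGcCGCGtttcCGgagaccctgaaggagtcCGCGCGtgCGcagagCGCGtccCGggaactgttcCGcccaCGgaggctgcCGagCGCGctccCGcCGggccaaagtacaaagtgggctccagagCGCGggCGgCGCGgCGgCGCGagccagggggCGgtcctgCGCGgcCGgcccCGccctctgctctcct
ABCB1: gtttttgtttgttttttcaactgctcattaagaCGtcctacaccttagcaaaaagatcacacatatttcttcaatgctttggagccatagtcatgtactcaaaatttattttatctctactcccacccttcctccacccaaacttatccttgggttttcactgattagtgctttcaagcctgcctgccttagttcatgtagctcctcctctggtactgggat
ABCC9: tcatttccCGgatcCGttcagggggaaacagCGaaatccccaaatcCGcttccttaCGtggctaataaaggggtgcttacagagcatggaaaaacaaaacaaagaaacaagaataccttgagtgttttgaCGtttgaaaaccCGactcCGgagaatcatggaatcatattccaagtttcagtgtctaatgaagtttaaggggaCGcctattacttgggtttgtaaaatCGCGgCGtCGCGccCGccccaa
ABCC2: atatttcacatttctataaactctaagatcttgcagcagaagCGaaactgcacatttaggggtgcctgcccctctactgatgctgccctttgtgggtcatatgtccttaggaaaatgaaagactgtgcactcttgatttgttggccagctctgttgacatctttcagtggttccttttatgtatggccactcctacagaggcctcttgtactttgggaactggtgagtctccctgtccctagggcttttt
ABCB11: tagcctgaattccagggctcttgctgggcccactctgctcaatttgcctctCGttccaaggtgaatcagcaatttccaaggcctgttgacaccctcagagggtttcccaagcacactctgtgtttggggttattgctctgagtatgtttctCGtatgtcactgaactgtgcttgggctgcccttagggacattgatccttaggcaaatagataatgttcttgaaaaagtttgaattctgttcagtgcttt

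ABCB1 has a second start at a window from 87600835 to 87601134 with a ratio of 0.698, against 0.102 at the upstream one, and the deposited value is per gene, so the starts could not be told apart. ABCG2 goes against the trend, with a ratio of 0.902 at its most CpG-rich start and 1 estimated read, as does ABCA12, with 0.222 and 3.26 FPKM.

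**Figure D5:**
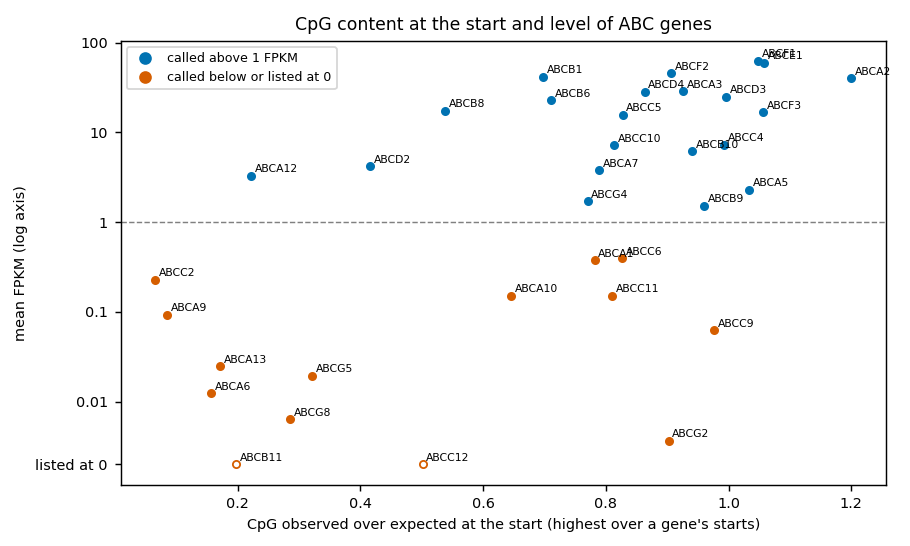
Highest ratio of observed to expected CpG over a gene's starts against mean FPKM (log axis) for 35 ABC genes; blue, called above 1 FPKM; orange, called below or listed at 0. Genes above 1 FPKM gather at ratios over 0.6, with ABCA12, ABCD2 and ABCB8 to the left, and ABCG2 and ABCC9 lie low at high ratios.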

How the data were processed

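RNA of 3 flasks of SH-SY5Y cells was sequenced as single reads of 50 bases, per the labels' protocols. Cufflinks 2.2.1, TopHat2 2.1.1, FastQC 0.10.1, bcl2fastq and build hg38 are named in the submitters' processing notes. No source used here gives their settings, the annotation release or whether counting used strand. The authors deposited 1 FPKM value per gene and library for 60660 Ensembl identifiers, of which 57046 matched GENCODE release 29 (GRCh38). Where identifiers shared a name, that with the highest mean was kept (59152 names).

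The limma test ran on log2(FPKM + 0.1), relative to 1 FPKM, over genes with a value above 0 in any library (limma 3.58.1, R 4.3.3). It was also run on simulated data with normal errors and SDs shuffled over genes, which does not cover genes of few reads. A distance on the log2(FPKM + 0.1) scale understates that of low genes. A value of 0 can be a failed estimate. Depth was estimated from FPKM times effective length (length less an assumed 200 bases) in genes with 1 transcript, where 96.8% to 97.3% of low values lay within 0.1 of a whole read. Reads per gene use its longest transcript and are approximate.

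The 45 members, 7 roles, 10 partner lists, pairs and alternatives were chosen with earlier results of these data known, and the CpG threshold and GC box after the values were seen. The members are named, apart from 2 genes that are not reported here, and from each list some of the highest genes and those that bear on a member. Protein sequences were not used here.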

Additional observations from a re-analysis of the deposited data

How the results depend on the processing

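The calls of the ABC genes were recomputed under 12 alternatives. The number called above 1 FPKM was 27 with a pseudocount of 1 or 0.01, with a mean of at least 0.1 FPKM, after median-ratio rescaling, in TPM without genes of the mitochondrial chromosome, and at a level of 0.5 FPKM. It was 26 with no filter on low values, 24 in TPM over all genes, and 25 to 26 with 1 library left out. The number called below was 7 with a mean of at least 0.1 FPKM, because fewer low genes were then tested, and 13 to 18 in the other alternatives at 1 FPKM or 0.5 FPKM. At a level of 5 FPKM 18 were above and 22 below. There the log2 distance from the level turned negative for ABCD2 (-0.25), ABCA7 (-0.40), ABCA12 (-0.61), ABCC8 (-0.85), ABCA5 (-1.09), ABCB4 (-1.27), ABCG4 (-1.51) and ABCB9 (-1.66). Of these ABCD2 (limma adjusted p = 0.0506) and ABCC8 (0.0692) were called neither, so 3 of the 43 tested ABC genes were called neither at 5 FPKM. At 0.5 FPKM, ABCC6, ABCA1 and ABCC3 were no longer called below, and with a pseudocount of 0.01 neither was ABCA4 (limma adjusted p = 0.0517).

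TPM shifts every gene of a library by a log2 value of -0.47, -0.54 and -0.46 in replicates 1, 2 and 3, since genes of the mitochondrial chromosome held 42.7%, 45.3% and 41.7% of summed FPKM. Without those genes the shift is 0.33, 0.33 and 0.32, and no call changed. No gene pair changed direction with another pseudocount or a library left out. Differences from a gene under 0.5 FPKM depend on the pseudocount: with 1 and 0.01, ABCC8 minus ABCC9 was 1.83 and 5.33, ABCA1 minus ABCG1 was -2.58 and -4.24, and ABCA7 minus ABCA1 was 1.80 and 3.31. Depth limits the lowest genes: ABCG2, ABCB11 and ABCC12 lay under 3 estimated reads in all 3 libraries, and 5 ABC genes did in at least 2. No paired analysis was possible because there is 1 group.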

Other observations

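Copies of ABC genes outside the protein-coding class were mostly low. ABCA11P, a transcribed pseudogene, was called above 1 FPKM at 2.45 ± 0.657 FPKM (SD, n = 3), and ABCA17P stood at 0.846 ± 0.240 and was called neither. ABCB10 and ABCF2 have copies too, each listed at 0 or with a mean of at most 0.006 FPKM, and reads of these genes can be divided with them.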
